A study of Mus musculus with 6 samples.

Results

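The nuclear genes for subunits of respiratory complex I were described in the gastrocnemius, a calf muscle, of wild-type (WT) mice and of mice without lnc-ORA, a long non-coding RNA. The members were 35 named subunit genes, listed by name and all found by symbol among the 11815 genes of the deposited table. In the knockout (KO), CRISPR with a pair of guide RNAs had removed 5147 bp of the genome, the whole lnc-ORA transcript included, on a C57BL/6 background, and KO muscle was taken at 15 weeks of age. Founders were crossed to wild-type mice, and the labels name neither the number of founder lines nor the age of the WT mice. The WT group had 3 libraries, numbered as replicates 2, 3 and 4 in the labels, and the KO group 3, numbered 1, 2 and 3. The study's question was the role of lnc-ORA in how muscle fibres change type.

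Complex I is the entry point of the mitochondrial respiratory chain: it takes electrons from NADH, passes them to ubiquinone and pumps protons across the inner membrane. It is built from modules that are assembled separately. The N module oxidises NADH, the Q module reduces ubiquinone, and the membrane arm is made of modules named for the subunits ND1, ND2, ND4 and ND5 of the mitochondrial genome. Core subunits do the chemistry, and accessory subunits, the larger number, hold the complex together. In muscle, oxidative fibres hold more mitochondria, and more complex I, than glycolytic ones.

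Values were reads per kilobase of gene length, scaled to the counted reads of the library (RPKM). The libraries held 54370181 to 69693905 counted reads, and the members had from 377 to 32965 reads per library. Testing with limma covered the 7574 genes that had at least 1 RPKM in 3 or more libraries, all 35 members among them. Skeletal muscle markers (10 genes such as Ckm and Acta1) summed to at least 102605 RPKM in every library, while none of the 7 adipocyte and none of the 6 lymphocyte names is among the table's genes. Schwann cell markers (6 genes) summed to 31.2 to 49.7 RPKM in WT and 7.14 to 9.86 in KO, and 8 endothelial markers to 21.1 to 33.2 and 17.8 to 18.9. Fibroblast markers (7 genes) summed to 14.7 to 24.5 RPKM in WT and 22.2 to 26.8 in KO, with 2 of 5 tested, Col3a1 and Smoc2, higher in limma. All 4 tested Schwann cell markers, 1 of 6 endothelial markers (Cldn5) and 1 of 10 muscle markers (Mb, at -0.91) were lower in limma. Macrophage, red blood cell and smooth muscle sums overlapped between genotypes. The part of these cells in the results below was not tested, and in bulk muscle fewer cells of a type and less RNA per cell cannot be told apart. The 10 most abundant genes took 44.4% to 48.3% of the reads in WT and 50.2% to 53.9% in KO, so all other genes had a smaller share of the KO reads. Of 1311 genes called, 77.9% were lower in KO, against 54.3% with library medians made equal and 47.4% with totals that leave out those 10 genes. The level of lnc-ORA was not analysed here, and genotypes are those of the labels. Since the labels do not tie libraries to separate mice, the p-values describe the spread of libraries only, which may be technical.

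Differences of complex I transcripts between genotypes were modest, and whether the levels were equal was not tested. None of the 35 members passed an adjusted p of 0.05 in limma, where 17.3% of all tested genes did (13.5% lower and 3.83% higher in KO). At an unadjusted p under 0.05, 6 members were lower, 17.1% of them beside 25.8% of all tested genes, and none was higher, beside 7.59%. The KO mean lay between 81.0% of the WT mean for Ndufs6 and 109% for Ndufc2. On the scale of log2(RPKM + 1), which understates changes of low genes, the median difference of the members was -0.13, beside -0.09 for all tested genes. Of the members, 31 were below 0, which is 88.6% of them, beside 67.6% of all tested genes.

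The intervals put limits on what these libraries leave possible. No 95% interval of a member reached below -0.52 or above 0.40 on the log2(RPKM + 1) scale. The interval held 0 in 29 members, and in all 35 it held the median of all tested genes. Within genotypes the members had a median SD of 0.10 (log2), beside 0.12 for the 2929 tested genes at or above the lowest member's WT mean. In 14 members every KO library was below every WT library, which is 40% of them, beside 30.0% of all tested genes. No member had all KO libraries above all WT libraries, beside 9.22%.

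**Figure D1:**
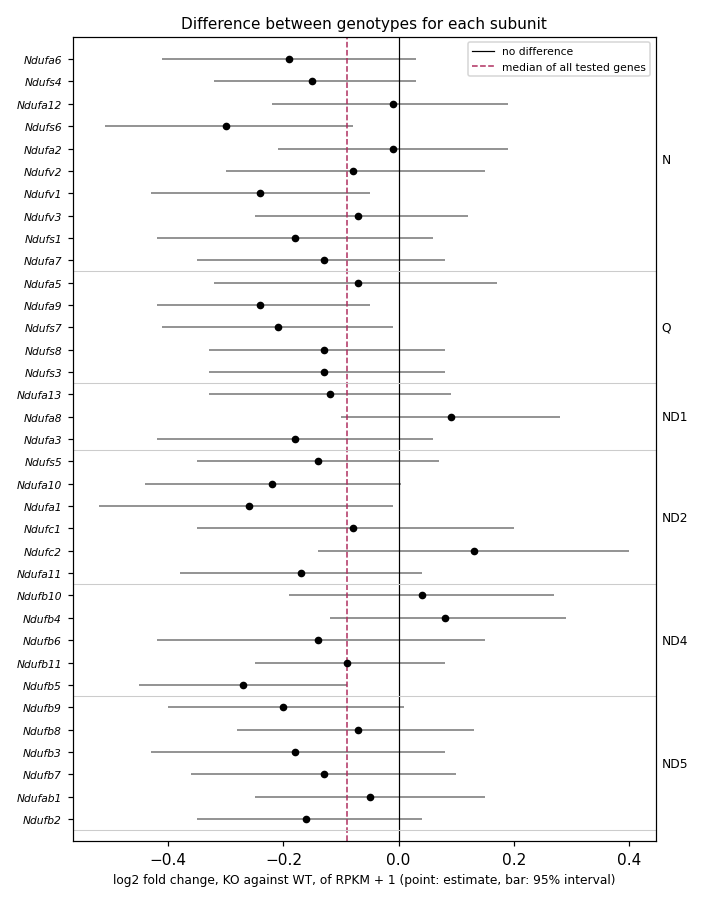
Log2 fold change of RPKM + 1, KO against WT, for each of the 35 subunits, grouped by module (right margin), with points for estimates and bars for 95% intervals from limma. The dashed line marks the median of all tested genes at -0.09, and every bar reaches it.

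The side of the enzyme that oxidises NADH held the member with the largest difference. Ndufs6, a zinc-binding accessory subunit of the N module, stood at 175, 171 and 204 RPKM in WT and 146, 146 and 155 in KO. All KO values lay below all WT values, and the log2 fold change was -0.30 with an SE of 0.09 (adjusted p = 0.0638 in limma). Ndufv1, the core subunit that binds NADH and the flavin, stood at 55.0, 50.8 and 52.1 RPKM in WT and 41.3, 46.9 and 45.4 in KO. Its groups did not overlap either, and the difference of -0.24 (SE 0.08) did not pass (adjusted p = 0.0872 in limma). The other core subunits of this module, the iron-sulphur proteins Ndufv2 and Ndufs1, overlapped between genotypes. Ndufs1 stood at 26.5, 25.9 and 23.2 RPKM in WT and 20, 25.1 and 21.5 in KO. Ndufv2 stood at 126, 137 and 158 RPKM in WT and 134, 129 and 133 in KO, all of the latter inside the WT range.

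Accessory N-module subunits were spread from no difference to that of Ndufs6. Ndufs4, whose loss in mice causes a fatal mitochondrial disease, had the smallest spread within genotypes of all members (SD 0.03 on the log2 scale). It stood at 249, 252 and 249 RPKM in WT and 234, 221 and 223 in KO, with non-overlapping groups and a log2 fold change of -0.15 (adjusted p = 0.216 in limma). Ndufa6, a protein of the LYR family that binds acyl carrier protein, stood at 253, 258 and 302 RPKM in WT and 230, 237 and 244 in KO. Ndufa12 and Ndufa2 were at -0.01 each, with KO means at 99.0% and 99.1% of WT. Ndufv3 was at -0.07 and Ndufa7 at -0.13. The 10 N-module members had a median of -0.14, and their summed level was 1264, 1271 and 1411 RPKM in WT and 1186, 1196 and 1211 in KO.

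In the Q module, Ndufa9 had the smallest p. This accessory subunit, of the family of short-chain dehydrogenases, stood at 86.5, 82.4 and 81.3 RPKM in WT and 67.4, 74.5 and 70.3 in KO. No KO library reached the WT range, and the log2 fold change was -0.24 with an SE of 0.08 (adjusted p = 0.0775 in limma). Ndufs7, the core subunit with the last iron-sulphur cluster before ubiquinone, stood at 28.8, 28.9 and 31.9 RPKM in WT and 26.3, 23.7 and 27.2 in KO (log2 fold change -0.21, adjusted p = 0.138 in limma). The other core subunits of the module, Ndufs3 and Ndufs8, were both at -0.13. Ndufa5 was the second most abundant member, at 270, 272 and 339 RPKM in WT and 277, 275 and 282 in KO. Its KO values lay inside the WT range, and only WT replicate 4 was above them.

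The membrane arm held the 4 members with a value above 0 and the member with the smallest p. That was Ndufb5 of the ND4 module, an accessory subunit with a single membrane span, at 14.0, 14.5 and 15.7 RPKM in WT and 11.6, 12.4 and 12.2 in KO. The groups did not overlap, and the log2 fold change was -0.27 with an SE of 0.08 (adjusted p = 0.053 in limma). In limma-voom on reads recovered from the RPKM it passed at an adjusted p of 0.0499, and no other member passed there. In the same module Ndufb4 stood at 36.8, 37.7 and 43.0 RPKM in WT and 41.7, 39.3 and 43.3 in KO, and Ndufb10 had a KO mean at 102% of WT. The summed level of the 5 members of the ND4 module was 206, 211 and 248 RPKM in WT and 224, 214 and 221 in KO, so that the KO sums lay inside the WT range.

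The ND2 module ranged furthest. Ndufa1, a small subunit encoded on the X chromosome, stood at 65.2, 63.0 and 81.9 RPKM in WT and 58.7, 55.5 and 59.3 in KO. WT replicate 4 was the high library, and the KO values lay below all WT values (log2 fold change -0.26, adjusted p = 0.136 in limma). Ndufc2 had the largest positive difference, 0.13, with a 95% interval from -0.14 to 0.40. It stood at 17.8, 22 and 24.0 RPKM in WT and 24.8, 22.4 and 22.3 in KO, and WT replicate 2 was the low library. Ndufa10, a subunit related to nucleoside kinases, stood at 142, 138 and 128 RPKM in WT and 106, 129 and 116 in KO, and its groups overlapped. Ndufa11, a membrane subunit, was among the 3 lowest members at 7.19, 6.84 and 8.40 RPKM in WT and 6.30, 6.59 and 6.61 in KO. Its KO values lay just below the lowest WT value (log2 fold change -0.17). All 3 KO sums of the 6 members, 392, 392 and 394 RPKM, were below the WT sums of 424, 430 and 470.

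The 3 members of the ND1 module overlapped between genotypes. Ndufa8, a protein of the intermembrane space, stood at 95.7, 96.0 and 106 RPKM in WT and 101, 109 and 105 in KO, with a log2 fold change of 0.09. Ndufa3, one of the shortest members, stood at 8.35, 8.58 and 9.56 RPKM in WT and 7.87, 6.63 and 8.56 in KO (log2 fold change -0.18, adjusted p = 0.257 in limma). Ndufa13 was at -0.12.

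At the tip of the membrane arm, the 6 members of the ND5 module were all below 0, with a median of -0.14. Ndufb9, another LYR protein, was the most abundant member at 306, 305 and 346 RPKM in WT and 271, 275 and 288 in KO. Its groups did not overlap, and the log2 fold change of -0.20 did not pass (adjusted p = 0.159 in limma). Ndufab1, the mitochondrial acyl carrier protein, also serves lipoic acid synthesis and iron-sulphur assembly outside the complex. It stood at 7.53, 7.07 and 8.63 RPKM in WT and 7.22, 7.55 and 7.52 in KO, with a log2 fold change of -0.05. Ndufb2 was the lowest member, at 5.29, 5.34 and 6.23 RPKM in WT and 5.05, 4.96 and 4.76 in KO. Ndufb3, Ndufb7 and Ndufb8 lay between -0.18 and -0.07.

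**Figure D2:**
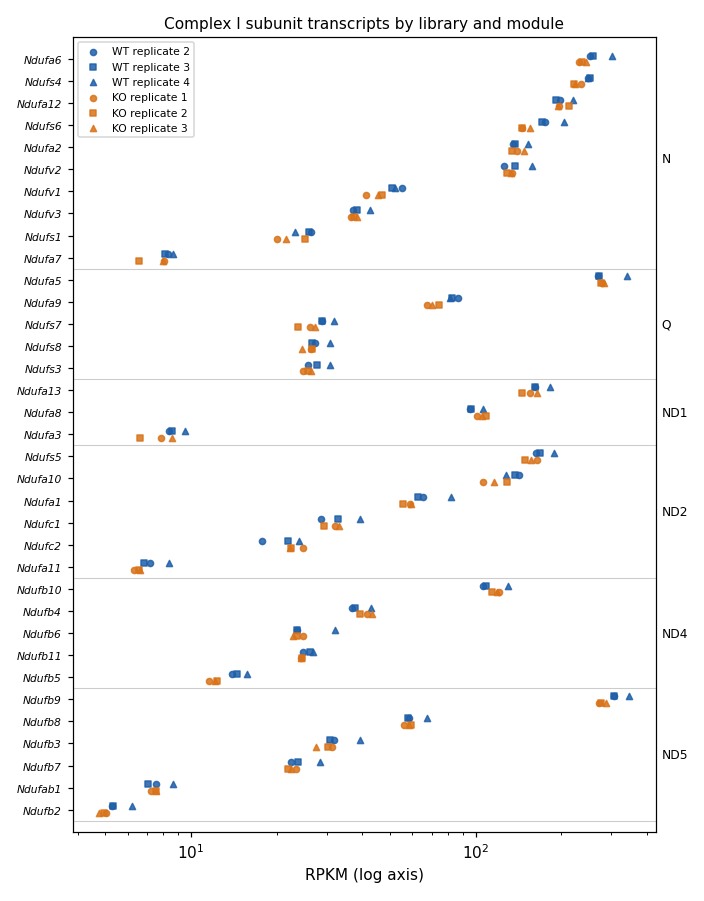
RPKM on a log axis of each subunit in each of the 6 libraries, grouped by module, with WT in blue and KO in orange. Ndufb9 at 271 to 346 RPKM and Ndufb2 at 4.76 to 6.23 mark the ends, and the WT triangle (replicate 4) is the rightmost point in most rows.

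A single WT library stood out among the members. WT replicate 4 was the highest of the 6 libraries in 27 members, 77.1% of them, and it was the highest in 16.1% of all tested genes. It was also the highest in most of the 41 tested subunits of complexes II to V, so this was not particular to complex I. WT replicate 2, the highest in 46.9% of all tested genes, was the highest in 4 members. Measured from each gene's mean over the libraries, the median member stood at 0.19 (log2) in WT replicate 4 and at 0.00 and 0.01 in WT replicates 2 and 3, while the KO libraries were at -0.07 to -0.05. The lowest library was a KO library in 26 members, 74.3% of them, beside 62.7% of all tested genes. Without WT replicate 4 the median log2 fold change of the members was -0.06, with 24 members below 0. Without WT replicate 2 it was -0.18, with 32 below 0. No member passed in limma without either of them.

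The high values of that library were mostly those of short subunits. Of the 30 members with up to 900 coding bases, 26 were highest in WT replicate 4. Of the 5 longer ones (Ndufa10, Ndufa9, Ndufv1, Ndufv3 and Ndufs1), 1 was, Ndufv3. This split was chosen after the values were seen and has no test. Ndufa10, Ndufa9, Ndufv1 and Ndufs1 shared another order, with WT replicate 2 the highest library and KO replicate 1 the lowest. These were also the commonest extremes of all tested genes, at 46.9% for WT replicate 2 as the highest and 34.2% for KO replicate 1 as the lowest. Genes other than the members were not split by length.

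**Figure D3:**
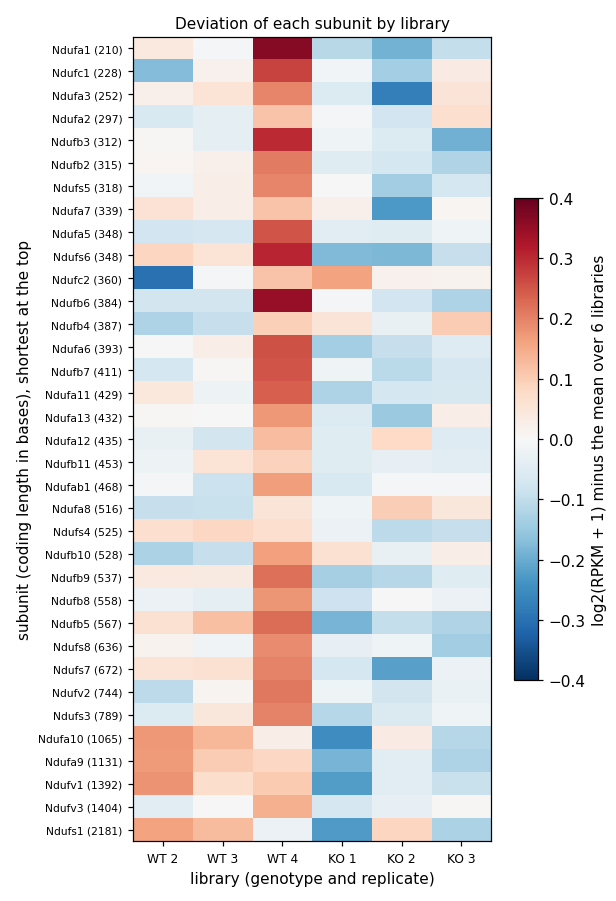
Deviation of log2(RPKM + 1) from the mean over the 6 libraries, for each subunit (rows, shortest coding sequence at the top) and library (columns). WT replicate 4 is red for the short subunits (highest in 26 of 30), and WT replicate 2 is red and KO replicate 1 blue for 4 of the 5 long ones.

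The direction of the members' median depended on the scaling. It was -0.13 as deposited, -0.01 with library medians made equal and 0.01 with totals that leave out the 10 most abundant genes. Over the same 3 scalings the median of all tested genes was -0.09, 0.01 and 0.02. The number of members below 0 was 31, 21 and 15. The number at an unadjusted p under 0.05 was 6, 0 and 1, and the last was Ndufa8, at 0.23. In the authors' deposited table, 21 members had a log2 fold change below 0 and 14 above, from -0.16 to 0.14. The smallest FDR of a member there was 0.297, and 1.62% of all genes had an FDR under 0.05.

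**Figure D4:**
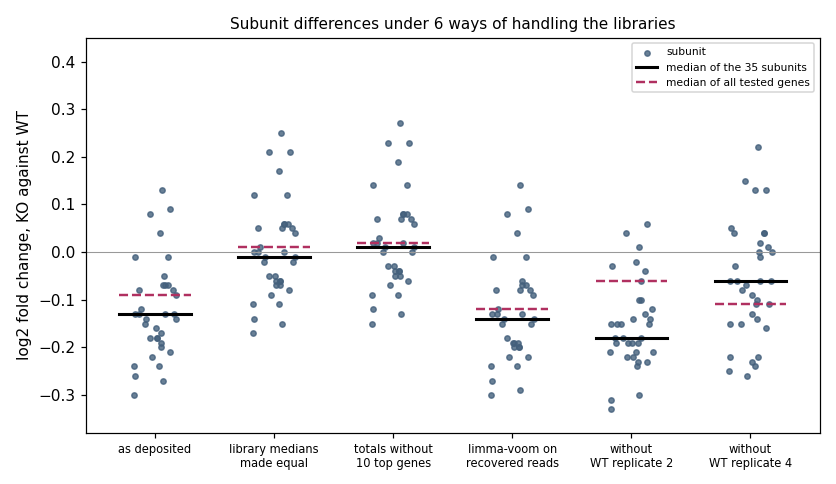
Log2 fold change of each of the 35 subunits (points) under 6 ways of handling the libraries, with the subunits' median (black bar) and the median of all tested genes (dashed bar). The subunits' median is at -0.13 as deposited, -0.01 and 0.01 under the other scalings, -0.18 without WT replicate 2 and -0.06 without WT replicate 4.

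Levels of the members spread widely, and part of the order came from the gene length used. By deposited RPKM the WT means of Ndufb9 (319), Ndufa5 (294) and Ndufa6 (271) were the highest, and those of Ndufb2 (5.62), Ndufa11 (7.48) and Ndufab1 (7.74) the lowest, a 56.8-fold range. The length behind the RPKM could be recovered from the values, and in 13 members it was over 3 times the coding sequence. For Ndufb2 it was 5628 bases against 315 coding bases, and for Ndufab1 6883 against 468. Counted per kilobase of coding sequence instead, the WT means spanned 24.3-fold. Ndufa5 (871), Ndufs4 (731) and Ndufa12 (623) were then the highest, and Ndufa3 (35.8), Ndufa7 (41.8) and Ndufs8 (42.9) the lowest. Ndufb2 moved from rank 35 to 22 and Ndufb7 from 28 to 12. Ndufs1 and Ndufv1, core subunits of the same module, stood at 25.2 and 52.6 RPKM but at 93.5 and 95.3 per coding kilobase. These lengths are the same in both genotypes, and they bear on the printed fold changes through the pseudocount: with 0.1 in place of 1, Ndufb2 was at -0.18 and Ndufa11 at -0.19.

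**Figure D5:**
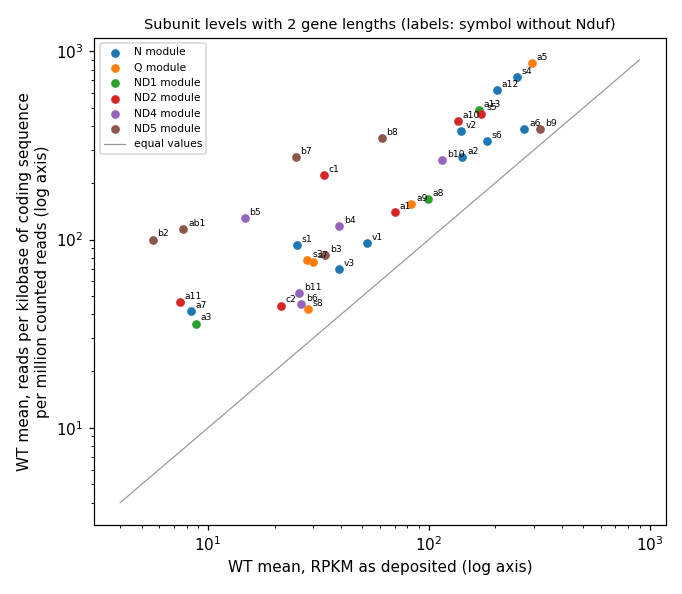
WT mean level of each subunit by deposited RPKM (horizontal, log axis) and per kilobase of coding sequence, scaled as RPKM (vertical, log axis), coloured by module. Points far above the line of equal values, such as b2, ab1 and b7, are subunits whose RPKM used a length many times their coding sequence.

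The members lie on 15 chromosomes, so the set is not a locus. By the GENCODE M21 annotation (GRCm38), Ndufb5 spans chr3:32736990-32751566, Ndufs6 chr13:73319838-73328542 and Ndufa9 chr6:126821721-126849136. Ndufv1 (chr19:4007384-4012806) and Ndufs8 (chr19:3908863-3912774) lie 94.6 kb apart on the same strand. Neighbours and copies limit some values: 14 members overlap a gene on the other strand, and the sources used here do not say whether counting used strand. Ndufb5 overlaps Mrpl47 and Ndufs6 overlaps Mrpl36 in this way. On the same strand, 6 members overlap another gene, among them Ndufb9 (Gm49356) and Ndufb8 (Gm20538). For 20 members some 50-base stretches of the mRNA, on either strand, also occur in transcripts of other genes, up to 39.7% for Ndufs3. Their values are less certain. The share was 23.4% for Ndufb9 and 13.5% for Ndufb8, each with its neighbour on the same strand. Among the members with the smallest p, it was 16.2% for Ndufb5 and 14.6% for Ndufs6 (with its copy Ndufs6b). It was 1.4% for Ndufa9 and 0 for Ndufv1, Ndufa1 and Ndufs7. The shares of Ndufb5 and Ndufa9 come from genes that overlap them on the other strand, as counted above.

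Start regions of the members were searched for binding motifs of factors known for nuclear respiratory genes, since the members serve a common function. RefSeq windows (GRCm38.p6) from 250 bases before to 50 after the start were used for 32 members. Ndufa2, Ndufb9 and Ndufs1 were left out of the search, so whether they hold these motifs was not tested. The NRF1 motif was searched as GCGCA and GCGC parted by any single base. It occurred on either strand in 7 members (21.9%), beside 5.19% of all 27025 genes with a RefSeq window. Those genes include ones not tested here, and the share among tested genes was not computed. The shares of all genes given for the other motifs use the same 27025 genes. The match nearest the start is shown in capitals for each of the 7 members, along the strand of the gene. The search fixed these letters except for the strand and the free base, so the likeness of the sites is not a result.
Ndufs6, chr13:73328479-73328508, minus strand: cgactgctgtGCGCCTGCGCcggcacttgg
Ndufb4, chr16:37654371-37654400, minus strand: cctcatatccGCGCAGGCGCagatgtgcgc
Ndufa5, chr6:24527697-24527726, minus strand: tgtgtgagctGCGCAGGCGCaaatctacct
Ndufa8, chr2:36049349-36049378, minus strand: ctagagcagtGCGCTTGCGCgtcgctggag
Ndufa11, chr17:56717692-56717721, plus strand: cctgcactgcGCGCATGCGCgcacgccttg
Ndufs5, chr4:123718265-123718294, minus strand: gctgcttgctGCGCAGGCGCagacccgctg
Ndufa6, chr15:82354249-82354278, minus strand: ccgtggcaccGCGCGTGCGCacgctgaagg
Those 7 members included the most negative difference, Ndufs6 at -0.30, and 2 of the 4 positive ones, Ndufa8 at 0.09 and Ndufb4 at 0.08. Their median was -0.14, beside -0.13 for the 25 members without a match.

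The letters AAGATGG, the core of the YY1 motif, were in 7 members too (21.9%, beside 7.28% of all genes). All 7 matches began 23 to 39 bases after the start, on the strand of the gene, and in all of them the ATG was the annotated start codon, so the match and the codon cannot be told apart.
Ndufs6, chr13:73328438-73328459, minus strand: ggtcaccggcAAGATGGcggcg
Ndufs7, chr10:80249463-80249484, plus strand: ggccgaggccAAGATGGcggcg
Ndufs4, chr13:114388048-114388069, minus strand: tgcctacaggAAGATGGcggcg
Ndufa9, chr6:126849104-126849125, minus strand: attgtgggagAAGATGGcggcc
Ndufc1, chr3:51408922-51408943, minus strand: cctgcggaacAAGATGGcgccg
Ndufa3, chr7:3617385-3617406, plus strand: cgccaagaacAAGATGGccggg
Ndufb8, chr19:44555393-44555414, minus strand: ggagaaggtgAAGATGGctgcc
The members with this match ranged from -0.30 to -0.07, with a median of -0.18, and the 25 without it from -0.27 to 0.13, with a median of -0.13. The ETS letters CCGGAAG were in 4 members (12.5%, beside 9.93% of all genes), and the letters TCAAGGTCA of oestrogen-related receptors in none, beside 0.466%. Ndufb5 had none of the 4 motifs in its window.

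Few of the partners of these subunits passed the test either. Of 19 tested assembly factors, which build the complex but are not part of it, 1 rose and none fell, where 3.83% of all tested genes rose and 13.5% fell. Their median log2 fold change was 0.03, beside -0.13 for the subunits. The one that rose was Tmem126b, a membrane factor of the early assembly steps, at 10.1, 9.39 and 11.9 RPKM in WT and 14.1, 14.5 and 14.4 in KO. The groups did not overlap, and its log2 fold change was 0.43 with an SE of 0.10 (adjusted p = 0.0223 in limma). This call was lost in limma when WT replicate 3 (adjusted p = 0.0722) or one of the KO replicates 1, 2 and 3 was left out (adjusted p = 0.0706, 0.071 and 0.0912). Ndufaf4 (0.26, adjusted p = 0.118 in limma) and Ndufaf2 (0.21, adjusted p = 0.136 in limma) had the next largest positive values. The difference in median between factors and subunits was not tested.

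Of the 7 complex I subunits of the mitochondrial genome, 1 rose and none fell, where 3.83% of all tested genes rose and 13.5% fell. That was mt-Nd3, at 87.2, 73.9 and 106 RPKM in WT and 169, 196 and 148 in KO (log2 fold change 0.94, adjusted p = 0.00721 in limma). It stood far below the other 6, whose WT means ran from 6395 RPKM for mt-Nd4 to 13191 for mt-Nd1 and whose log2 fold changes ran from -0.28 to -0.13. Among these, mt-Nd1 and mt-Nd5 belong to the 10 most abundant genes. In all 6 of them, as in most nuclear members, WT replicate 4 was the highest library, at 16913 RPKM of mt-Nd1 beside 10296 to 12401 in the other libraries.

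Among 6 tested regulators of nuclear respiratory genes, 1 rose and none fell, beside 3.83% and 13.5% of all tested genes. Ppargc1a, the coactivator of mitochondrial biogenesis, stood at 2.26, 1.68 and 1.37 RPKM in WT and 3.51, 5.49 and 4.0 in KO (log2 fold change 0.94, adjusted p = 0.0082 in limma). Esrra, an orphan nuclear receptor that works with it, was at 0.07, and Gabpa, an ETS factor, at -0.16. Ppargc1b, the relative of Ppargc1a, was below the level needed for testing, at 0.806, 0.816 and 1.22 RPKM in WT and 0.481, 0.451 and 0.344 in KO. Nrf1 was below that level too, at 1.05, 0.995 and 0.899 RPKM in WT and 0.71, 0.799 and 0.725 in KO. The calls of Ppargc1a and mt-Nd3 held in every alternative tried.

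The subunits of complexes II to V lay close to those of complex I. Of 41 tested, 4 fell (Uqcrc2, Uqcrq, Cox6b1 and Atp5l), where 13.5% of all tested genes fell, and none rose, with a median of -0.17 and 39 below 0. None of these 4 calls held in limma once library medians were equal, where the adjusted p ran from 0.146 to 0.195, with totals that leave out the 10 most abundant genes, or without any one of the KO replicates. The 4 fibre type myosins of the same libraries went different ways. Myh1, of type IIx fibres, and Myh2, of type IIa fibres, had log2 fold changes of -1.09 and -0.90 (adjusted p = 0.0225 and 0.0261 in limma). In limma both missed the threshold when WT replicate 2 was left out (adjusted p = 0.0513 and 0.056), and likewise for WT replicate 3 and for KO replicates 1 and 3. Myh4, of type IIb fibres, was at 0.30, with all KO libraries above all WT libraries (adjusted p = 0.0885 in limma). Myh7, of type I fibres, was at -0.13 with an interval from -1.64 to 1.38. Of 9 reference genes of mitochondrial content, such as citrate synthase and the porins, none passed, where 17.3% of all tested genes did. Their median was -0.04.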

How the data were processed

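The table of 6 gastrocnemius libraries deposited by the authors holds RPKM per gene, a unit inferred from the values because its header gives none. Libraries were made by mRNA fragmentation and random priming, per the labels' protocols. The build is GRCm39, per the submitters' processing notes; the aligner, annotation, counting program and use of strand are not given in sources used here. The authors' own comparison has log2 fold changes, log2 CPM, an F score, a p-value and an FDR, per the file headers, which do not name its test.

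Groups came from sample titles. The fit was limma-trend (limma 3.58.1, R 4.3.3) of log2(RPKM + 1) on genotype alone. It took genes with 1 RPKM or more in 3 or more libraries, adjusted p over all of them (Benjamini-Hochberg), and was checked on simulated data. Members, lists and motifs were chosen with earlier results of these data known. Values in every library are given for members with an unadjusted p under 0.05, the highest and lowest by RPKM, the largest positive changes, the smallest p of each module, and others chosen after their values were seen (Ndufs1, Ndufv2, Ndufs4, Ndufa10 and Ndufb4). Reads were recovered as RPKM times length times library total, whole to within 0.02 reads in all 6 libraries for all 11815 genes, with lengths from GENCODE M21 for 9227 genes and from the values for the rest. Libraries of the same genotype differed by more than sampling noise (lowest chi-square per degree of freedom 25.4). Motif windows came from RefSeq; proteins are not printed. Python 3.11.15, pandas 2.3.3, numpy 2.4.6, scipy 1.17.1 and matplotlib 3.10.9 did the rest.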

Additional observations from a re-analysis of the deposited data

How the results depend on the processing

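No member passed under 11 of the 12 alternatives; in limma-voom on recovered reads 1 did, among 1395 genes called. Members at an unadjusted p under 0.05 numbered 0 with equal library medians, 1 with totals without the 10 most abundant genes, and 2 to 6 when 1 library was left out, over which no member was called, the median log2 fold change was -0.18 to -0.06 and 471 to 1637 genes were called in all. The members' median was -0.01 with equal medians and 0.01 without the 10 genes, and it lay between -0.18 and -0.06 in the other alternatives. No filter on low values, or a pseudocount of 0.1, changed no member's sign or call. Signs changed for 10 members with equal medians and 16 without the 10 genes. With equal medians, Ndufa13 was at 0.01, Ndufb11 at 0.04, Ndufb8, Ndufv2 and Ndufc1 at 0.05, Ndufv3, Ndufa5 and Ndufab1 at 0.06, and Ndufa12 and Ndufa2 at 0.12. Without the 10 genes, Ndufs4 was at 0.00, Ndufs5 and Ndufb6 at 0.01, Ndufs8, Ndufs3 and Ndufb7 at 0.02, Ndufa13 at 0.03, Ndufb11 at 0.06, Ndufb8, Ndufv2 and Ndufc1 at 0.07, Ndufv3, Ndufa5 and Ndufab1 at 0.08, and Ndufa12 and Ndufa2 at 0.14. The replicate numbers 2 and 3 are shared by both genotypes but are not said to mark a pair. Deviations of same-numbered libraries correlated at 0.479 and 0.27 across genes. For libraries of different numbers the correlations ran from -0.389 to 0.431, the highest for WT replicate 4 with KO replicate 1. With replicate number as a block, WT replicate 4 and KO replicate 1 do not bear on the fold changes, since each number occurs in 1 genotype only. The fold changes of that fit rest on replicates 2 and 3 of each genotype. In it 0 members were called, 5 were at an unadjusted p under 0.05, and 1548 genes were called in all. Signs changed there for Ndufb8 (0.02), Ndufv3 (0.01), Ndufa5 (0.04), Ndufc1 (0.03), Ndufab1 (0.04), Ndufa12 (0.07) and Ndufa2 (0.04). Leaving out 1 library gave -0.21 to 0.00 for Ndufb6, -0.15 to 0.01 for Ndufv2, -0.13 to 0.04 for Ndufa5, -0.18 to 0.04 for Ndufc1, -0.10 to 0.02 for Ndufab1, -0.02 to 0.13 for Ndufb10, -0.06 to 0.05 for Ndufa12 and -0.05 to 0.04 for Ndufa2. The cause of these changes was not tested. Count tests on deposited counts were not run, since the table holds none. Each member had at least 377 reads in every library.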
